A study of Mus musculus with 14 samples.

Results

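The genes described here encode the proteins that start and restrain signalling at the T cell receptor. They are 36 genes, chosen by symbol, of the 26683 gene symbols in a count table of sorted mouse CD4 T cells. All 36 passed the filter on low counts, among 13427 genes tested. RNA was sequenced from splenic CD4 T cells of female mice aged 8 months. TC mice are the congenic line B6.NZM-Sle1NZM2410/AegSle2NZM2410/AegSle3NZM2410/Aeg/LmoJ, which carries Sle1, Sle2 and Sle3, genomic intervals that confer lupus susceptibility, on a B6 background. B6 mice, C57BL/6J, were the controls. Follicular helper T cells (Tfh) were gated as CD4+CD44+CD162lo/-PD-1+ and naive T cells (Tn) as CD4+CD44-. The groups were TC Tfh (3 libraries), TC Tn (3), B6 Tfh (4) and B6 Tn (4), from 3 TC and 4 B6 mice that each gave 1 Tfh and 1 Tn library. The Tfh gate carries no marker that removes regulatory or follicular regulatory T cells. All animals were of the same sex and age.

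When the receptor binds peptide on MHC, the kinase LCK, held near it by CD4, phosphorylates the CD3 and zeta chains, and ZAP70 docks there. ZAP70 then marks the adaptors LAT and SLP-76, around which phospholipase C gamma 1 and TEC family kinases assemble. That lipase makes inositol trisphosphate, which releases calcium and so moves NFAT factors to the nucleus, and diacylglycerol, which recruits protein kinase C theta and RASGRP1. CSK, phosphatases such as PTPN22 and PTPN2, CBL ubiquitin ligases, UBASH3 proteins and diacylglycerol kinases oppose these steps. Tfh cells meet antigen repeatedly on B cells in follicles and germinal centres, whereas naive cells have not yet responded to antigen.

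Promoter sequence is shown for 4 members with wide differences between Tfh and Tn, a choice that passed over some wider rises. Nfatc1 and Malt1 rose more but had no promoter entry. Ubash3b, which rose more than Zap70 and Ptpn22 in TC and more than Zap70 in B6, was not chosen. The windows shown are those of a pair lower in Tfh (Txk, Grap2) and a pair higher (Zap70, Ptpn22). Each is the 250 bases before the gene's start in RefSeq on build GRCm38.p6, written 5′ to 3′ along the gene, with GGAA and its reverse complement TTCC in capitals, the core letters of ETS factor sites. Txk lies at chr5:72752778-72753027 on the minus strand, and Grap2 at chr15:80623233-80623482, Zap70 at chr1:36761548-36761797 and Ptpn22 at chr3:103859545-103859794 on the plus strand. In the GENCODE M21 annotation Grap2 spans 80572594 to 80652854, so its window lies inside that gene model.
Txk: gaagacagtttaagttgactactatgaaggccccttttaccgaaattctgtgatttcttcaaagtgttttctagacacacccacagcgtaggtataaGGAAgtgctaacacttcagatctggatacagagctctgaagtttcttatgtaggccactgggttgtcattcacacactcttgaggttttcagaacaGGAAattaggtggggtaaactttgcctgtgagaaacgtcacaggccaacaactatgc
Grap2: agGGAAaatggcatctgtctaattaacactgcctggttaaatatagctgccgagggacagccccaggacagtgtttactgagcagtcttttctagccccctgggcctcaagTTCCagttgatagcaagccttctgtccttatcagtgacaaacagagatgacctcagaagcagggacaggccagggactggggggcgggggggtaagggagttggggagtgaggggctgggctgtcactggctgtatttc
Zap70: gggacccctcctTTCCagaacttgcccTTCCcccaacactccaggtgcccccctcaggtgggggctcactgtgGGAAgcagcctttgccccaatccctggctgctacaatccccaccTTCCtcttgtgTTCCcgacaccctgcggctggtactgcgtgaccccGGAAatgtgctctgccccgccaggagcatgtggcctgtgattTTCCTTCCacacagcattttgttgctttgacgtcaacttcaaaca
Ptpn22: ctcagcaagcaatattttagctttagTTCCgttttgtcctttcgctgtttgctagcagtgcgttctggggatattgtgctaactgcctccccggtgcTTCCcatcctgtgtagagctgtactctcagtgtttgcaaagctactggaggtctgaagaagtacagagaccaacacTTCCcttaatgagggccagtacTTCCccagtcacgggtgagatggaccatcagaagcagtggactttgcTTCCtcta
The capitals occur 2 times in the Txk and 2 times in the Grap2 window, 8 times in Zap70 and 5 times in Ptpn22, and such counts did not sort the members by direction: Fyn and Plcg1, both higher in Tfh, have 0 and Dgkz 2, while Tec, lower in Tfh, has 5 and Lat 4. The Fyn and Dgkz windows, like that of Grap2, lie inside the GENCODE gene model. An entry was found for 31 of the 36 members. On both strands, GGAA was present in 29 of these 31 windows and in 93.4% of 26730 mouse promoters of the same length. GGAAA, the NFAT core, which overlaps GGAA, was present in 21 of 31 and 55.8% of all. CTTTGA, the core of TCF1 and LEF1 sites, was present in 8 of 31 and 14.1% of all, and TGTGGT, the RUNX core, in 1 of 31 and 14.1%. A match is a description of letters and not a bound site.

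Library totals ran from 15162309 to 20191558 counts. The members took 2.02 to 2.17% of counts in the 7 Tfh libraries and 1.68 to 1.83% in the 7 Tn libraries. CPM below means counts per 1000000 counts of a library scaled by edgeR's TMM method. The marker lists separated the groups as labelled: 7 Tfh markers summed to 2072 to 2777 CPM in Tfh and 143 to 173 CPM in Tn, and 7 naive markers to 2462 to 2978 CPM in Tfh and 7352 to 9648 CPM in Tn. All 6 regulatory T cell markers were detected in every group, and they summed to 2480 to 2951 CPM in TC Tfh, 124 to 166 in TC Tn, 1982 to 2366 in B6 Tfh and 160 to 209 in B6 Tn (Foxp3 averaged 324, 26.0, 311 and 37.7 CPM in those groups). The 13 B cell markers summed to 85.4 to 123 CPM in Tfh and 1.53 to 3.71 CPM in Tn. In Tfh, Cd22 led (58.5 CPM in TC and 92.2 in B6), followed by Pax5 (16.6 and 12.0), Fcmr (12.4 and 4.18) and Cd79b (6.58 and 6.37), each at most 1.03 CPM on average in Tn, while Ms4a1 and Cd79a averaged below 1 CPM in every group. Of the 2 CD8 T cell markers, Cd8a was at 0 in every Tfh library and Cd8b1 averaged 6.81 CPM in TC Tfh, 11.6 in TC Tn, 6.72 in B6 Tfh and 18.8 in B6 Tn. These lists move with the contrast of Tfh and Tn, and some with strain, and their part in the results that follow was not tested. In bulk RNA, fewer cells that hold a transcript and less of it per cell cannot be told apart. Adjusted p-values weigh a difference against the spread between libraries of a group, which came from different mice. The main fit did not pair the Tfh and Tn library of a mouse.

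Receptor signalling genes split into 2 directions between Tfh and Tn. In TC, 29 of the 36 members passed the test at an adjusted p below 0.05, 16 higher and 13 lower in Tfh. Of all genes tested 66.1% passed, 33.7% higher and 32.4% lower. In B6, 26 members passed, 14 higher and 12 lower, where 70.3% of all genes passed, 36.9% higher and 33.3% lower. The TC groups did not overlap in any library for 29 members (71.3% of all genes), and the B6 groups for 26 (63.9% of all genes). Most genes differed between these cell types, and the share of members that passed was 80.6% in TC and 72.2% in B6. Whether these shares differ from those of all genes was not tested. The median log2 fold change over the members was 0.037 in TC and 0.061 in B6, against -0.009 and 0.018 over all genes tested. The strains do not share mice in this contrast: 14 members were called higher in Tfh in both strains (30.9% of all genes tested), 11 lower in both (27.8%), 6 in neither (22.5%) and 0 in opposite directions (0.238%). Beyond 2-fold stood 9 called members in TC and 11 in B6, from Txk, with a log2 fold change of -3.39 in TC and -3.59 in B6, to Nfatc1, with 2.20 and 2.12.

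**Figure D1:**
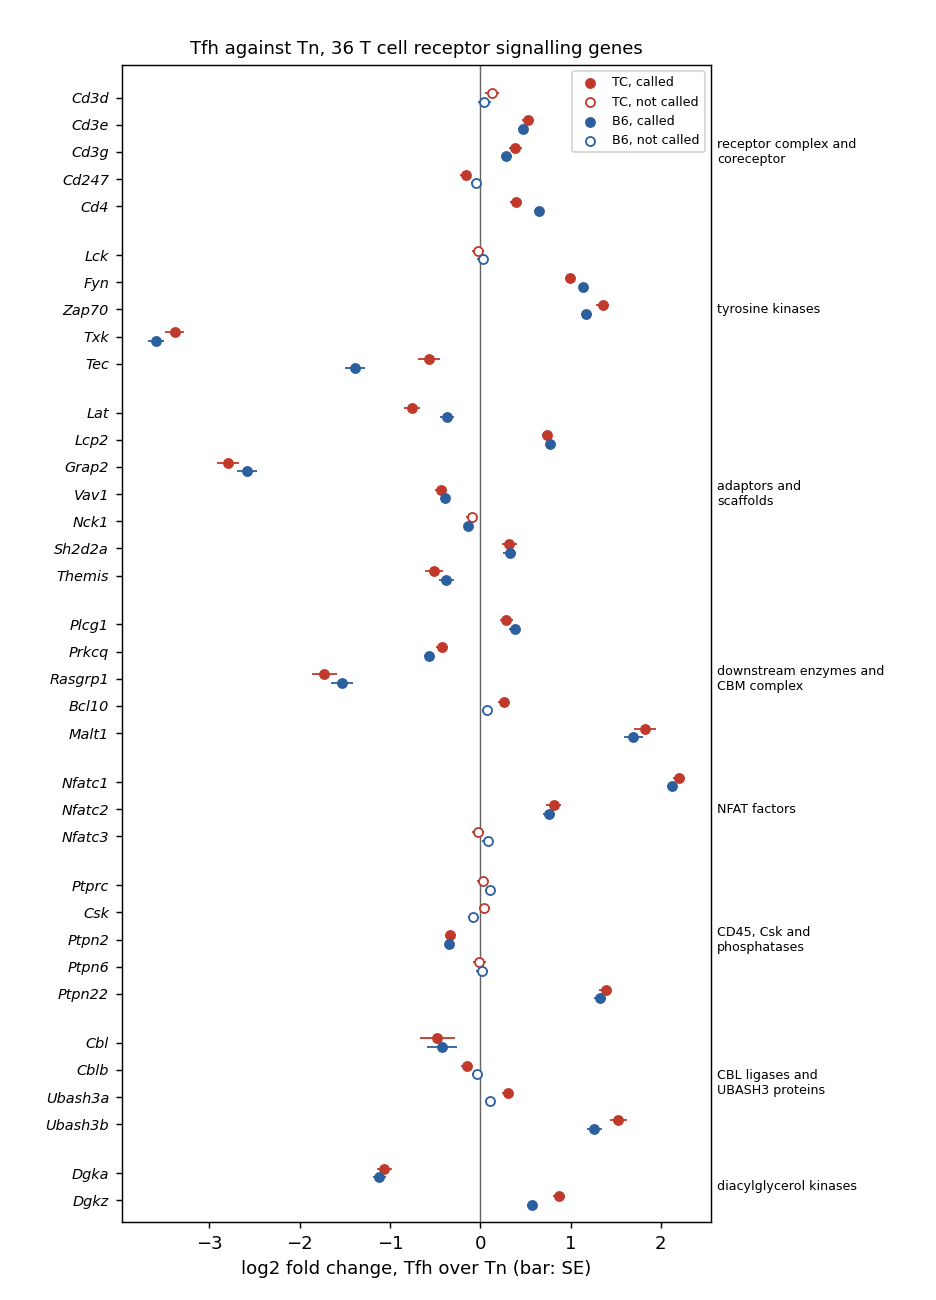
Log2 fold change of Tfh over Tn for each of the 36 members (rows, grouped by role) in TC and B6 mice, with bars of 1 SE, filled points for genes called by edgeR and open points for the rest. Txk and Grap2 lie farthest left, Nfatc1 and Malt1 farthest right, and the points of both strains lie close together for most genes but Tec.

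Among the receptor chains and the coreceptor, 3 of 5 genes were higher in Tfh in both strains (Cd4, Cd3e and Cd3g). Cd4 encodes the coreceptor that brings LCK to the receptor, and CD4 protein was part of both gates. It stood at 1572, 1644 and 1574 CPM in TC Tfh, against 1217, 1249 and 1181 CPM in TC Tn. In B6 mice it stood at 1778, 1957, 2035 and 1975 CPM in B6 Tfh, against 1163, 1223, 1293 and 1264 CPM in B6 Tn. Every Tfh library lay above every Tn library. For Cd4 the log2 fold change was 0.39 (SE 0.064, edgeR adjusted p = 3.18e-05) in TC and 0.65 (SE 0.055, edgeR adjusted p = 7.98e-09) in B6.

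Cd3e, the signalling chain shared by both CD3 dimers of the receptor, stood at 759.6, 682 and 753 CPM in TC Tfh, against 524, 510.2 and 485 CPM in TC Tn. In B6 mice, Cd3e stood at 729, 798, 815 and 774 CPM in B6 Tfh, against 523, 578, 567 and 583 CPM in B6 Tn. The cell types did not overlap in either strain. For Cd3e the log2 fold change was 0.53 (SE 0.064, edgeR adjusted p = 9.33e-07) in TC and 0.47 (SE 0.055, edgeR adjusted p = 5.61e-07) in B6. Cd3g, the gamma chain, differed by 0.39 (SE 0.074, edgeR adjusted p = 0.000172) and 0.29 (SE 0.064, edgeR adjusted p = 0.000599).

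Cd3d, the delta chain, did not pass in either strain. It stood at 405, 354 and 378 CPM in TC Tfh, against 367, 332 and 337 CPM in TC Tn, and its log2 fold change was 0.13 (SE 0.079, edgeR adjusted p = 0.144). In B6 mice, Cd3d stood at 503, 601, 562 and 530.4 CPM in B6 Tfh, against 526, 554, 572 and 475 CPM in B6 Tn, a log2 fold change of 0.046 (SE 0.068, edgeR adjusted p = 0.557). The B6 groups overlapped widely. With mouse as a block, which matches the Tfh and Tn library of each animal, Cd3d passed in TC at 0.13 (adjusted p = 0.0409), as it did without TC Tfh 2, at 0.21 (adjusted p = 0.0383). Cd247, which encodes the zeta chain, fell in TC Tfh, at 487 ± 1.06 CPM in TC Tfh and 544 ± 7.54 CPM in TC Tn (SD, n = 3 each), a log2 fold change of -0.16 (SE 0.060, edgeR adjusted p = 0.0257). Leaving out any of 7 single libraries ended that call (adjusted p 0.0535 to 0.127), and in B6 its value was -0.049 (SE 0.051, edgeR adjusted p = 0.412). Exons of Pou2f1 on the opposite strand cover 56.4% of the Cd247 exons, and the counting strand is not given, so Cd247 counts are uncertain.

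The tyrosine kinases moved in opposite ways. Txk and Tec, both of the TEC family that activates phospholipase C gamma 1, fell in Tfh, while Zap70 and Fyn rose and Lck did not pass. Txk stood at 16.2, 21.4 and 18.1 CPM in TC Tfh, against 187, 194 and 200.2 CPM in TC Tn. In B6 mice, Txk stood at 17.9, 20.1, 14.2 and 15.8 CPM in B6 Tfh, against 206, 201, 210.1 and 200.3 CPM in B6 Tn. The Tn libraries lay close together, at about the same level in both strains, and each was far above every Tfh library. For Txk the log2 fold change was -3.39 (SE 0.10, edgeR adjusted p = 3.71e-14) in TC, a 10.5-fold lower level, and -3.59 (SE 0.088, edgeR adjusted p = 1.77e-15) in B6, 12.0-fold lower. Behind the Tfh values were 271 to 402 reads a library.

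Tec stood at 12.3, 16.2 and 14.5 CPM in TC Tfh, against 22.6, 20.7 and 20.3 CPM in TC Tn. In B6 mice, Tec stood at 11.4, 10.2, 11.2 and 10.5 CPM in B6 Tfh, against 21.9, 30.3, 30.2 and 31.3 CPM in B6 Tn. It had the fewest reads of the members, with 202 to 269 reads in Tfh and 325 to 557 in Tn. No Tfh library reached the lowest Tn library of its strain, and B6 Tn 1 lay well below the other B6 Tn libraries. For Tec the log2 fold change was -0.57 (SE 0.12, edgeR adjusted p = 0.000634) in TC and -1.39 (SE 0.11, edgeR adjusted p = 2.09e-09) in B6. Txk and Tec are neighbours on chromosome 5 on the same strand, with 2938 bases between them.

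Zap70, the kinase that docks on the phosphorylated chains, stood at 732, 605 and 718 CPM in TC Tfh, against 269, 273 and 262 CPM in TC Tn. In B6 mice, Zap70 stood at 587, 636, 677 and 629 CPM in B6 Tfh, against 262, 294, 288 and 276 CPM in B6 Tn. The groups were far apart in both strains, and TC Tfh 2 was the lowest Tfh library of its strain. For Zap70 the log2 fold change was 1.36 (SE 0.073, edgeR adjusted p = 2.15e-11) in TC and 1.18 (SE 0.063, edgeR adjusted p = 1.22e-11) in B6. Fyn, the second SRC family kinase of T cells, averaged 927 ± 5.49 CPM in TC Tfh and 466 ± 16.6 in TC Tn (SD, n = 3 each), and 914 ± 20.2 in B6 Tfh and 414 ± 19.4 in B6 Tn (n = 4 each). For Fyn the log2 fold change was 0.99 (SE 0.055, edgeR adjusted p = 2.88e-11) and 1.14 (SE 0.048, edgeR adjusted p = 3.79e-13). Lck averaged 1108 ± 6.35 CPM in TC Tfh and 1126 ± 38.8 in TC Tn, and 1137 ± 91.2 in B6 Tfh and 1118 ± 28.9 in B6 Tn. Its differences of -0.023 (SE 0.066, edgeR adjusted p = 0.771) and 0.025 (SE 0.057, edgeR adjusted p = 0.712) were within the spread of the libraries.

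Of the 7 adaptors and scaffolds, 2 were higher and 4 lower in TC Tfh, and 2 were higher and 5 lower in B6 Tfh. Grap2 encodes GADS, which links SLP-76 to LAT. Grap2 stood at 62.5, 85.8 and 58.9 CPM in TC Tfh, against 472, 473 and 490.2 CPM in TC Tn. In B6 mice, Grap2 stood at 68.8, 73.1, 62.4 and 86.0 CPM in B6 Tfh, against 442, 418, 441 and 444 CPM in B6 Tn. Tn libraries varied little around their means and no Tfh library came near them. For Grap2 the log2 fold change was -2.79 (SE 0.13, edgeR adjusted p = 4.99e-11) in TC and -2.59 (SE 0.11, edgeR adjusted p = 1.29e-11) in B6, a 6.93-fold and a 6.01-fold lower level.

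Lcp2 encodes SLP-76, the partner of GADS, and it differed the other way. Lcp2 stood at 722, 714 and 693 CPM in TC Tfh, against 421, 438 and 421 CPM in TC Tn. In B6 mice, Lcp2 stood at 644, 660.1, 687 and 676 CPM in B6 Tfh, against 382, 395, 384 and 399.5 CPM in B6 Tn. Replicates were tight and the cell types did not overlap. For Lcp2 the log2 fold change was 0.73 (SE 0.050, edgeR adjusted p = 5.09e-10) in TC and 0.77 (SE 0.043, edgeR adjusted p = 2.24e-11) in B6. Lat, the membrane scaffold itself, was lower in Tfh, at 445 ± 37.6 CPM in TC Tfh and 751 ± 12.4 in TC Tn, and 578 ± 69.6 in B6 Tfh and 746 ± 46.0 in B6 Tn, with log2 fold changes of -0.76 (SE 0.089, edgeR adjusted p = 6.62e-07) and -0.37 (SE 0.076, edgeR adjusted p = 0.000324). The 3 genes of the LAT, GADS and SLP-76 bridge did not share a direction.

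The remaining adaptors differed less. Sh2d2a, which encodes the LCK-binding adaptor TSAd, was higher in Tfh, with a log2 fold change of 0.32 (SE 0.086, edgeR adjusted p = 0.00329) in TC and 0.33 (SE 0.075, edgeR adjusted p = 0.000851) in B6. Vav1, an exchange factor for RAC that acts on the actin skeleton, was lower, at -0.43 (SE 0.062, edgeR adjusted p = 7.11e-06) and -0.39 (SE 0.053, edgeR adjusted p = 4.06e-06). Themis, a scaffold best known from thymocyte selection, was lower at -0.51 (SE 0.10, edgeR adjusted p = 0.000268) and -0.37 (SE 0.086, edgeR adjusted p = 0.000991). Nck1, an adaptor to the actin machinery, was lower in B6 at -0.13 (SE 0.053, edgeR adjusted p = 0.0341) and did not pass in TC at -0.095 (SE 0.063, edgeR adjusted p = 0.192). Its B6 call was lost on leaving out any of 6 single libraries (adjusted p 0.0516 to 0.135).

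Downstream of LAT, the transcripts again parted. Malt1 encodes the paracaspase of the CARMA1, BCL10 and MALT1 complex that leads to NF-kappaB. Malt1 stood at 759, 547 and 787 CPM in TC Tfh, against 186, 195 and 211 CPM in TC Tn. In B6 mice, Malt1 stood at 587, 498, 660.2 and 581 CPM in B6 Tfh, against 187, 181, 167 and 183 CPM in B6 Tn. TC Tfh 2 and B6 Tfh 2 were the lowest Tfh libraries of their strains, still above all Tn. For Malt1 the log2 fold change was 1.82 (SE 0.12, edgeR adjusted p = 3.2e-09) in TC and 1.70 (SE 0.11, edgeR adjusted p = 9.17e-10) in B6. Its partner Bcl10 rose in TC Tfh by 0.26 (SE 0.061, edgeR adjusted p = 0.00116) and did not pass in B6, at 0.076 (SE 0.052, edgeR adjusted p = 0.199), except without B6 Tn 1, at 0.12 (adjusted p = 0.04).

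Rasgrp1, the diacylglycerol-activated exchange factor for RAS, was lower in Tfh. Rasgrp1 stood at 139, 199 and 138 CPM in TC Tfh, against 506, 523 and 545 CPM in TC Tn. In B6 mice, Rasgrp1 stood at 195, 215, 173 and 223 CPM in B6 Tfh, against 680.2, 543, 534 and 567 CPM in B6 Tn. The groups did not overlap, and B6 Tn 1 was the highest library. For Rasgrp1 the log2 fold change was -1.73 (SE 0.14, edgeR adjusted p = 5.83e-08) in TC and -1.53 (SE 0.12, edgeR adjusted p = 3.08e-08) in B6. Prkcq, which encodes protein kinase C theta, was likewise lower, at -0.42 (SE 0.066, edgeR adjusted p = 2.1e-05) and -0.57 (SE 0.057, edgeR adjusted p = 7.29e-08), whereas Plcg1, the lipase that makes diacylglycerol, was higher at 0.29 (SE 0.071, edgeR adjusted p = 0.00169) and 0.38 (SE 0.062, edgeR adjusted p = 2.48e-05).

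Of the NFAT factors, the calcium-driven transcription factors, Nfatc1 and Nfatc2 rose in Tfh and Nfatc3 did not pass. Nfatc1 stood at 1023, 1066 and 1150 CPM in TC Tfh, against 237, 230.2 and 238 CPM in TC Tn. In B6 mice, Nfatc1 stood at 935, 918, 1010 and 973 CPM in B6 Tfh, against 207, 225, 214 and 234 CPM in B6 Tn. Every Tfh library was far above every Tn library. For Nfatc1 the log2 fold change was 2.20 (SE 0.065, edgeR adjusted p = 9.71e-15) in TC and 2.12 (SE 0.056, edgeR adjusted p = 1.04e-15) in B6, a 4.59-fold and a 4.36-fold higher level.

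Nfatc2 stood at 285, 266 and 254 CPM in TC Tfh, against 161, 157 and 141 CPM in TC Tn. In B6 mice, Nfatc2 stood at 201, 203, 239 and 237 CPM in B6 Tfh, against 128, 132, 119 and 140.3 CPM in B6 Tn. The cell types did not overlap in either strain. For Nfatc2 the log2 fold change was 0.81 (SE 0.079, edgeR adjusted p = 6e-08) and 0.76 (SE 0.069, edgeR adjusted p = 1.58e-08). Nfatc3 averaged 442 ± 16.6 CPM in TC Tfh and 451 ± 13.6 in TC Tn, and 491 ± 39.9 in B6 Tfh and 463 ± 25.9 in B6 Tn. Its differences were -0.028 (SE 0.068, edgeR adjusted p = 0.736) and 0.083 (SE 0.059, edgeR adjusted p = 0.221), and the B6 one passed without B6 Tfh 2, at 0.15 (adjusted p = 0.0146).

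CD45, CSK and the phosphatases held 3 of the 6 members called in neither strain. Ptpn22, whose product dephosphorylates LCK and ZAP70, was the exception in size. Ptpn22 stood at 546, 519.6 and 563 CPM in TC Tfh, against 218, 207 and 197 CPM in TC Tn. In B6 mice, Ptpn22 stood at 496, 551, 544 and 550.3 CPM in B6 Tfh, against 186, 234, 222 and 212 CPM in B6 Tn. All Tfh libraries lay above all Tn libraries, and B6 Tfh 1 was below the other B6 Tfh libraries. For Ptpn22 the log2 fold change was 1.39 (SE 0.075, edgeR adjusted p = 2.08e-11) in TC and 1.33 (SE 0.065, edgeR adjusted p = 3.26e-12) in B6.

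Ptpn2, a phosphatase of LCK and of JAK kinases, fell. Ptpn2 stood at 56.7, 54.1 and 54.3 CPM in TC Tfh, against 67.0, 69.8 and 70.8 CPM in TC Tn. In B6 mice, Ptpn2 stood at 56.8, 62.9, 54.2 and 59.6 CPM in B6 Tfh, against 75.4, 73.7, 75.6 and 72.0 CPM in B6 Tn. The groups were close yet separate. For Ptpn2 the log2 fold change was -0.33 (SE 0.056, edgeR adjusted p = 4.85e-05) and -0.34 (SE 0.048, edgeR adjusted p = 3.96e-06). Ptprc, which encodes CD45 and had the highest CPM of the members, differed by 0.028 (SE 0.063, edgeR adjusted p = 0.712) in TC and 0.10 (SE 0.055, edgeR adjusted p = 0.101) in B6, and passed in B6 without B6 Tfh 2, at 0.15 (adjusted p = 0.0146). Csk, the kinase that restrains LCK, differed by 0.047 (SE 0.063, edgeR adjusted p = 0.527) and -0.077 (SE 0.054, edgeR adjusted p = 0.215), and Ptpn6, which encodes SHP-1, by -0.009 (SE 0.072, edgeR adjusted p = 0.916) and 0.019 (SE 0.062, edgeR adjusted p = 0.797).

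In the group of CBL ligases and UBASH3 proteins, Ubash3b stood out. It encodes STS-1, a phosphatase that acts on ZAP70. Ubash3b stood at 108, 103 and 123 CPM in TC Tfh, against 39.8, 35.6 and 40.1 CPM in TC Tn. In B6 mice, Ubash3b stood at 131, 116, 133 and 105 CPM in B6 Tfh, against 56.9, 49.0, 48.6 and 47.3 CPM in B6 Tn. The cell types did not overlap. For Ubash3b the log2 fold change was 1.53 (SE 0.097, edgeR adjusted p = 4.7e-10) in TC and 1.26 (SE 0.082, edgeR adjusted p = 4.31e-10) in B6. Its relative Ubash3a, a weak phosphatase, rose in TC by 0.30 (SE 0.060, edgeR adjusted p = 0.000227), and in B6 its value was 0.11 (SE 0.051, edgeR adjusted p = 0.0707). With mouse as a block Ubash3a passed in B6 too, at 0.11 (adjusted p = 0.0327), as it did on leaving out any of 4 single libraries (adjusted p 0.0224 to 0.0485).

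Cbl and Cblb encode ubiquitin ligases that mark receptor components for removal. Cbl stood at 186, 205 and 175 CPM in TC Tfh, against 249, 272 and 268 CPM in TC Tn. In B6 mice, Cbl stood at 154, 81.6, 139 and 121 CPM in B6 Tfh, against 192, 169.7, 132 and 172 CPM in B6 Tn. B6 Tfh 2 was far below the other B6 Tfh libraries, and the B6 cell types overlapped. For Cbl the log2 fold change was -0.48 (SE 0.19, edgeR adjusted p = 0.0466) in TC and -0.42 (SE 0.17, edgeR adjusted p = 0.0412) in B6. Neither call held with mouse as a block, at -0.48 (adjusted p = 0.0692) and -0.45 (adjusted p = 0.0572), and they were lost on leaving out any of 10 and 11 single libraries (adjusted p 0.0581 to 0.151 and 0.0504 to 0.111), with a B6 value of -0.25 without B6 Tfh 2. Cblb passed in TC at -0.15 (SE 0.058, edgeR adjusted p = 0.0305) and not in B6 at -0.038 (SE 0.050, edgeR adjusted p = 0.515), and the TC call was lost on leaving out any of 9 single libraries (adjusted p 0.0509 to 0.262).

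The diacylglycerol kinases, which remove the lipid that recruits RASGRP1 and protein kinase C theta, moved in opposite ways. Dgka stood at 1151, 1247 and 1157 CPM in TC Tfh, against 2383, 2527 and 2517 CPM in TC Tn. In B6 mice, Dgka stood at 769.5, 968, 876 and 984 CPM in B6 Tfh, against 1809, 1958, 1996 and 2048 CPM in B6 Tn. All Tn libraries lay far above the Tfh libraries of their strain, and the log2 fold change was -1.06 (SE 0.083, edgeR adjusted p = 3.18e-09) in TC and -1.12 (SE 0.072, edgeR adjusted p = 1.54e-10) in B6.

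Dgkz stood at 1352, 1388 and 1479 CPM in TC Tfh, against 756, 777 and 769.5 CPM in TC Tn. In B6 mice, Dgkz stood at 966, 983, 974 and 1120 CPM in B6 Tfh, against 683, 675, 679 and 691 CPM in B6 Tn. Here every Tfh library was above every Tn library, and B6 Tfh 4 was above the other B6 Tfh libraries. For Dgkz the log2 fold change was 0.87 (SE 0.063, edgeR adjusted p = 1.04e-09) in TC and 0.57 (SE 0.054, edgeR adjusted p = 3.52e-08) in B6.

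A correction for exon length and GC content, chosen after seeing the data and fitted together with mouse as a block, changed some of these calls. In B6, Csk passed at -0.29 (adjusted p = 2.5e-05), Ptprc at 0.17 (adjusted p = 0.00231), Nfatc3 at 0.11 (adjusted p = 0.0109) and Cd3d at 0.11 (adjusted p = 0.0126), and Nck1 did not pass at -0.062 (adjusted p = 0.238). In TC, Cd3d passed at 0.19 (adjusted p = 0.000829). Cbl passed in both strains, at -0.50 (adjusted p = 0.0292) in TC and -0.42 (adjusted p = 0.0335) in B6, and Dgkz in B6 was at 0.34 (adjusted p = 5.61e-06), against 0.57 before. No other member's call between Tfh and Tn differed from the fit without correction and block.

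**Figure D2:**
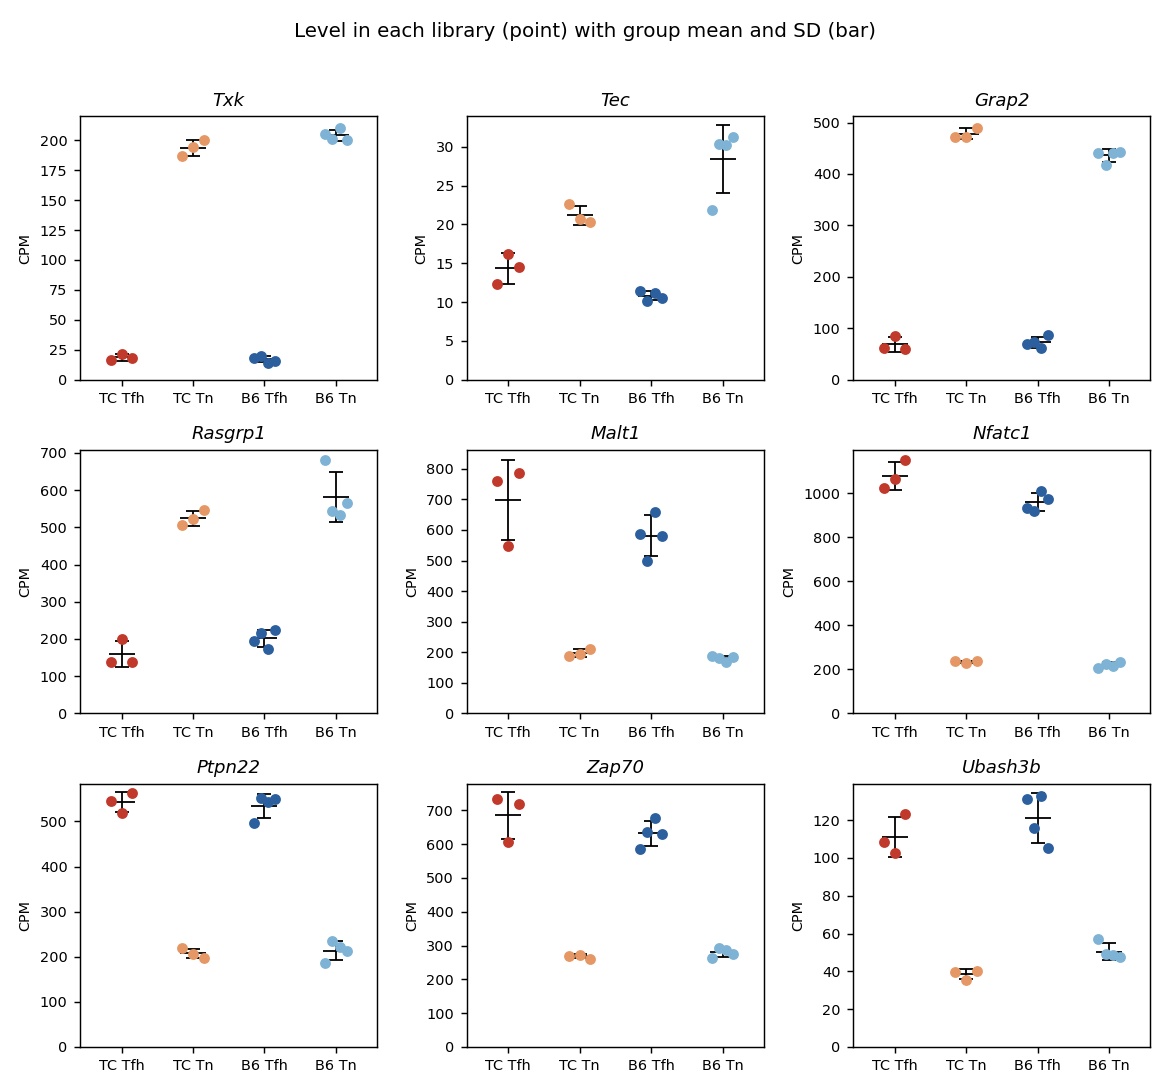
CPM of single members in each library (points) with group mean and SD (bars), in TC Tfh, TC Tn, B6 Tfh and B6 Tn. Txk stays between 14.2 and 21.4 CPM in Tfh and between 187 and 210.1 CPM in Tn, while Nfatc1 lies between 918 and 1150 CPM in Tfh and between 207 and 239 CPM in Tn.

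Ratios of read counts between related members within a library do not depend on how libraries were scaled. They compare reads, not molecules, because the genes differ in length. The ratios drawn below changed with cell type. There were 0.782 to 0.898 Dgka reads for each Dgkz read in TC Tfh and 3.15 to 3.27 in TC Tn, and 0.797 to 0.985 in B6 Tfh and 2.65 to 2.96 in B6 Tn. For Nfatc1 over Nfatc2 the ratio was 3.59 to 4.53 in TC Tfh and 1.47 to 1.69 in TC Tn, and 4.10 to 4.65 in B6 Tfh and 1.62 to 1.80 in B6 Tn. The Lck to Fyn ratio was 1.18 to 1.21 in TC Tfh and 2.35 to 2.48 in TC Tn, and 1.11 to 1.36 in B6 Tfh and 2.56 to 2.84 in B6 Tn. In none of these 3 pairs did the Tfh and Tn libraries of a strain overlap. The Txk to Tec ratio was 1.25 to 1.32 in TC Tfh and 8.27 to 9.84 in TC Tn, and 1.27 to 1.97 in B6 Tfh and 6.40 to 9.38 in B6 Tn. Between Ubash3a and Ubash3b, it was 1.38 to 1.90 in TC Tfh and 3.52 to 4.12 in TC Tn, and 1.24 to 1.74 in B6 Tfh and 2.74 to 3.43 in B6 Tn. The Cbl to Cblb ratio, which is not drawn, was 0.943 to 1.17 in TC Tfh and 1.21 to 1.35 in TC Tn. In B6 this ratio overlapped between cell types, at 0.498 to 0.857 in Tfh and 0.711 to 1.09 in Tn.

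**Figure D3:**
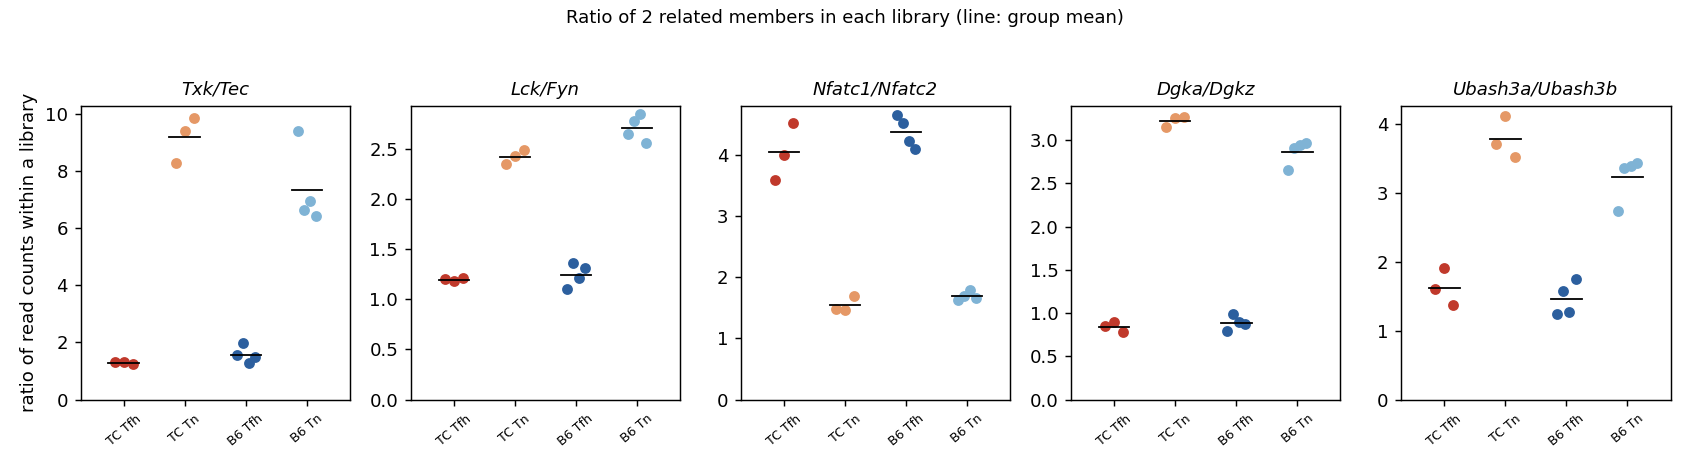
Ratio of read counts of related members within each library (points) by group, with lines at group means. The Tfh and Tn libraries of each strain do not overlap in any pair drawn, and the Dgka to Dgkz ratio is below 1 in all 7 Tfh libraries and at least 2.65 in all 7 Tn libraries. The Cbl to Cblb ratio, which overlapped in B6, is not drawn.

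Levels can be ordered between genes only per length. In mean CPM per kilobase of exon, Cd4 and Lck led in Tfh, with 396 and 378 in TC Tfh and 480.2 and 388 in B6 Tfh. In Tn, Dgka led, with 519.9 in TC Tn and 410.1 in B6 Tn, followed by Lck with 384 and 382. At the low end stood Txk and Tec in Tfh, with 1.70 and 3.83 in TC Tfh and 1.55 and 2.89 in B6 Tfh, and Tec and Ubash3b in Tn, with 5.66 and 5.26 in TC Tn and 7.59 and 6.89 in B6 Tn. The spread between mice was small: the median coefficient of variation over members was 5.81% in TC Tfh, 3.61% in TC Tn, 6.48% in B6 Tfh and 4.99% in B6 Tn, against 7.43, 6.91, 8.74 and 7.73% over all genes tested. The widest were Rasgrp1 in TC Tfh (22.2%) and Cbl in B6 Tfh (25.4%).

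Of 52 other genes of the pathway, listed by their known role, 18 were higher and 22 lower in TC Tfh, and 20 higher and 24 lower in B6 Tfh, 76.9 and 84.6% of the list against the 66.1 and 70.3% of all genes. The rises with the smallest adjusted p in B6 were those of Lax1, a LAT-like adaptor, Ptpn11, which encodes SHP-2, and Ptpn7, a phosphatase of MAP kinases. In B6 Tfh Lax1 averaged 355 ± 21.8 CPM, against 80.3 ± 6.70 CPM in B6 Tn (SD, n = 4 each), with a log2 fold change of 2.14 (SE 0.063, edgeR adjusted p = 4.05e-15). For Ptpn11 and Ptpn7 the values were 2.56 (SE 0.082, edgeR adjusted p = 1.37e-14) and 0.98 (SE 0.046, edgeR adjusted p = 1.62e-12). The falls led by adjusted p were Ppp3ca, a catalytic subunit of calcineurin, at -2.13 (SE 0.092, edgeR adjusted p = 1.38e-12), Pik3cd, the delta catalytic subunit of PI 3-kinase, at -1.04 (SE 0.055, edgeR adjusted p = 8.89e-12), and Nras at -0.89 (SE 0.049, edgeR adjusted p = 1.54e-11). In TC the same 6 genes stood at 1.94, 2.61, 0.97, -1.87, -0.98 and -0.75, in that order.

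Between strains the members differed by less. In Tfh, 16 of 36 passed, 7 higher and 9 lower in TC, where 49.7% of all genes tested passed, 24.2% higher and 25.5% lower. In Tn 19 passed, 10 higher and 9 lower, where 52% of all genes passed, 25.9% higher and 26.1% lower. The 10 higher came to 3 without TC Tn 2, and to 6 without TC Tn 1, without TC Tn 4 or under the correction for length and GC content given below. With a library left out, 3026 to 3635 of all genes were called higher in TC Tn, against 3477 in the main fit. The strains did not overlap for 16 members in Tfh (50.2% of all genes) and 21 in Tn (55.5%). No member differed 2-fold, the log2 fold changes running from -0.54 (Cd3d) to 0.60 (Cbl) in Tfh and from -0.62 (Cd3d) to 0.66 (Cbl) in Tn. The median absolute log2 fold change was 0.16 over members and 0.27 over all genes in Tfh, and 0.15 and 0.31 in Tn. These 2 comparisons use the same mice. Some marker lists did not overlap between strains either: in Tfh, Tfh markers summed to 2072 to 2440 CPM in TC and 2462 to 2777 in B6, regulatory T cell markers to 2480 to 2951 in TC and 1982 to 2366 in B6, and B cell markers to 85.4 to 112 in TC and 114 to 123 in B6. In Tn, naive markers summed to 7352 to 7651 CPM in TC and 8088 to 9648 in B6. Genes within these lists went both ways in mean CPM. In Tfh, Bcl6, Il21 and Tox2 were higher in TC, and Cxcr5, Pdcd1, Icos and Sh2d1a were lower. Ctla4 (630 in TC and 230 in B6), Ikzf2 (1082 and 784) and Foxp3 were higher in TC Tfh. Il2ra, Nrp1 and Tnfrsf18 (131 and 214) were lower there. In Tn, Klf2 and S1pr1 were higher in TC, and the other naive markers lower, with Igfbp4 at 741 in TC and 1422 in B6. The part of these lists in the strain results was not tested. Higher in TC in both cell types were Plcg1, Nfatc2, Cbl, Dgka and Dgkz, and lower in both were Cd3d, Cd3g, Cd247, Nck1 and Bcl10.

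Fold changes between strains also followed transcript length over all genes. From the shortest to the longest sixth of genes by exon length, the median log2 fold change of TC over B6 ran -0.24, -0.16, -0.080, -0.017, 0.069 and 0.16 in Tfh, and -0.21, -0.13, -0.070, 0.002, 0.063 and 0.13 in Tn. Between Tfh and Tn no such run was seen, with medians from -0.095 to 0.014 in TC and from -0.059 to 0.053 in B6. What gave this trend was not tested, so strain differences called below have beside them a value corrected for length and GC content, a correction chosen after seeing the data. This correction covers both, also where only length is named, and their parts were not separated. Under it 19 members passed in Tfh (45.5% of all genes) and 19 in Tn (49.5%), 14 of them in each cell type as before the correction and in the same direction.

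**Figure D4:**
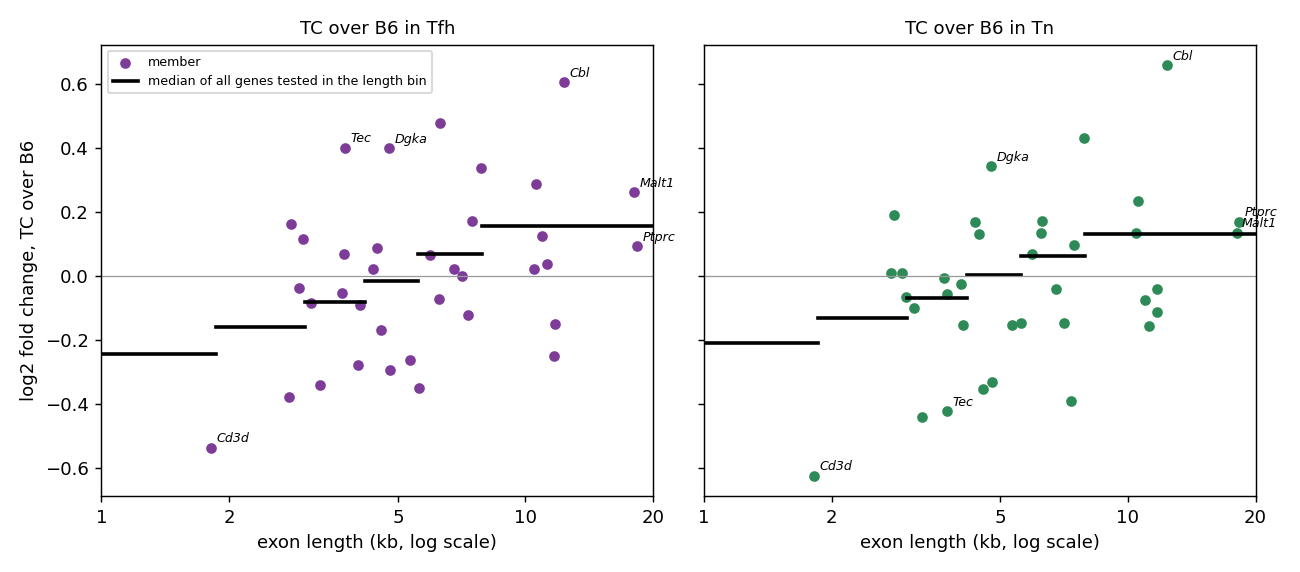
Log2 fold change of TC over B6 of each member (points) against its exon length in kb on a log axis, in Tfh and Tn, with black lines at the median of all genes tested in each sixth of lengths. The lines climb from -0.24 to 0.16 in Tfh and from -0.21 to 0.13 in Tn.

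Receptor chains were lower in TC. Cd3d had the widest fall: the 3 TC Tfh libraries, 354 to 405 CPM, lay below the 4 B6 Tfh libraries, 503 to 601 CPM, and TC Tn at 332 to 367 CPM below B6 Tn at 475 to 572 CPM. For Cd3d the log2 fold change was -0.54 (SE 0.074, edgeR adjusted p = 1.98e-05) in Tfh and -0.62 (SE 0.074, edgeR adjusted p = 2.85e-06) in Tn, and -0.28 (adjusted p = 0.000386) and -0.37 (adjusted p = 2.48e-05) after correction for length. Cd3g differed by -0.34 (SE 0.070, edgeR adjusted p = 0.000649) and -0.44 (SE 0.070, edgeR adjusted p = 5.21e-05), corrected -0.27 (adjusted p = 0.00219) and -0.35 (adjusted p = 0.000194). Cd247 was at -0.26 (SE 0.056, edgeR adjusted p = 0.000904) and -0.15 (SE 0.056, edgeR adjusted p = 0.0297), corrected -0.28 (adjusted p = 0.000542) and -0.15 (adjusted p = 0.0348), and its Tn call was lost without any of 6 single libraries (adjusted p 0.0514 to 0.0873). Cd3e did not pass in Tfh, at -0.090 (SE 0.060, edgeR adjusted p = 0.221), and passed in Tn at -0.15 (SE 0.060, edgeR adjusted p = 0.0413), a call lost after correction at -0.10 (adjusted p = 0.153) and without any of 6 single libraries (adjusted p 0.0513 to 0.158). Cd4 fell in TC Tfh, at -0.28 (SE 0.060, edgeR adjusted p = 0.000989) and -0.26 (adjusted p = 0.000949) corrected, and its value in Tn was -0.024 (SE 0.060, edgeR adjusted p = 0.771).

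Among kinases, Tec was higher in TC Tfh, at 0.40 (SE 0.12, edgeR adjusted p = 0.011), and lower in TC Tn, at -0.42 (SE 0.11, edgeR adjusted p = 0.00427), with corrected values of 0.45 (adjusted p = 0.00646) and -0.36 (adjusted p = 0.0136). The Tfh call was lost without TC Tfh 2, at 0.32 (adjusted p = 0.0677). In Tn the strains overlapped for Tec, with B6 Tn 1 at 21.9 CPM and TC Tn at 20.3 to 22.6 CPM. Fyn rose in TC Tn by 0.17 (SE 0.051, edgeR adjusted p = 0.00945), corrected 0.20 (adjusted p = 0.00184), a call lost without TC Tn 2 at 0.14 (adjusted p = 0.0601). Lck, Zap70 and Txk passed in neither cell type, with log2 fold changes of -0.037, 0.12 and 0.12 in Tfh and 0.011, -0.065 and -0.075 in Tn. Zap70 passed in Tfh without TC Tfh 2, at 0.21 (adjusted p = 0.0126), and in Tn after length correction, at -0.17 (adjusted p = 0.0379).

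Adaptors that passed were mostly lower. Lat fell in TC Tfh, at -0.38 (SE 0.083, edgeR adjusted p = 0.00115), corrected -0.34 (adjusted p = 0.00108), and stood at 0.009 (SE 0.082, edgeR adjusted p = 0.945) in Tn. Nck1 was lower in both, at -0.29 (SE 0.058, edgeR adjusted p = 0.000505) and -0.33 (SE 0.058, edgeR adjusted p = 0.000133), corrected -0.31 (adjusted p = 0.000324) and -0.32 (adjusted p = 0.000139). Themis passed in Tfh at -0.25 (SE 0.093, edgeR adjusted p = 0.0362), a call lost without any of 5 single libraries (adjusted p 0.0501 to 0.235), and corrected it was -0.48 (adjusted p = 0.0023) in Tfh and -0.28 (adjusted p = 0.0381) in Tn. Lcp2 passed in Tn at 0.13 (SE 0.047, edgeR adjusted p = 0.0268), corrected 0.16 (adjusted p = 0.00572), and was lost without any of 5 single libraries (adjusted p 0.0505 to 0.121). Grap2, Vav1 and Sh2d2a passed in neither cell type, and Grap2 passed in Tfh without TC Tfh 2, at -0.24 (adjusted p = 0.0404).

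Downstream, Plcg1 was higher in TC in both cell types, at 0.34 (SE 0.066, edgeR adjusted p = 0.000442) and 0.43 (SE 0.066, edgeR adjusted p = 3.56e-05), and 0.18 (adjusted p = 0.0152) and 0.27 (adjusted p = 0.000801) after correction. Bcl10 was lower in both, at -0.17 (SE 0.056, edgeR adjusted p = 0.019) and -0.35 (SE 0.057, edgeR adjusted p = 6.37e-05), corrected -0.16 (adjusted p = 0.0233) and -0.34 (adjusted p = 5.93e-05), with the Tfh call lost without any of 5 single libraries (adjusted p 0.0566 to 0.0818). Rasgrp1 was lower in TC Tfh at -0.35 (SE 0.13, edgeR adjusted p = 0.0375), corrected -0.38 (adjusted p = 0.0415), and also lost without any of 5 single libraries (adjusted p 0.0633 to 0.169). Malt1 did not pass in Tfh, at 0.26 (SE 0.11, edgeR adjusted p = 0.06), and passed without TC Tfh 2, at 0.43 (adjusted p = 0.000958), or B6 Tfh 3, at 0.35 (adjusted p = 0.0198). Corrected for length its value was -0.020 (adjusted p = 0.89). Prkcq in Tn was -0.14 (SE 0.062, edgeR adjusted p = 0.0583) and passed without any of 4 single libraries (adjusted p 0.0247 to 0.0469) and after correction, at -0.21 (adjusted p = 0.0119).

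The NFAT results rested on the correction for length and GC content. Nfatc2 was higher in TC at 0.29 (SE 0.073, edgeR adjusted p = 0.00355) in Tfh and 0.23 (SE 0.074, edgeR adjusted p = 0.013) in Tn, and Nfatc1 in Tfh at 0.17 (SE 0.058, edgeR adjusted p = 0.0203). Corrected, these were 0.042 (adjusted p = 0.641), -0.014 (adjusted p = 0.896) and 0.037 (adjusted p = 0.596), and none passed. Nfatc1 also did not pass without TC Tfh 4, at 0.14 (adjusted p = 0.102), nor Nfatc2 in Tn without TC Tn 1 or TC Tn 2 (adjusted p 0.0551 to 0.0712). Nfatc3 did not pass in either cell type, at -0.15 (SE 0.064, edgeR adjusted p = 0.0604) and -0.039 (SE 0.064, edgeR adjusted p = 0.637), and was lower in both after correction, at -0.35 (adjusted p = 3.01e-05) and -0.20 (adjusted p = 0.0037). Without B6 Tfh 2 or B6 Tn 1 it passed in Tfh (adjusted p 0.0116 to 0.0473).

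CD45, CSK and the phosphatases held no called member in Tfh. In Tn, Ptprc passed at 0.17 (SE 0.059, edgeR adjusted p = 0.0235) and Ptpn6 at 0.19 (SE 0.067, edgeR adjusted p = 0.0232), each lost without any of 3 single libraries (adjusted p 0.0622 to 0.109 and 0.0528 to 0.193). Ptprc turned round after correction, to -0.20 (adjusted p = 0.0107) in Tfh and -0.069 (adjusted p = 0.346) in Tn, while Ptpn6 stood at 0.25 (adjusted p = 0.00272) and 0.25 (adjusted p = 0.0024). Without any of 6 single libraries Ptpn6 passed in Tfh (adjusted p 0.0192 to 0.0478). Csk in Tn was -0.056 (SE 0.059, edgeR adjusted p = 0.448) and, corrected, -0.25 (adjusted p = 0.00103). Ptpn22 and Ptpn2 passed in neither cell type, before or after correction.

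Cbl had the widest rise in TC. In Tfh its TC libraries, 175 to 205 CPM, lay above the B6 libraries, 81.6 to 155 CPM, and in Tn the TC libraries at 249 to 272 CPM above the B6 libraries at 132 to 192 CPM. For Cbl the log2 fold change was 0.60 (SE 0.18, edgeR adjusted p = 0.0161) in Tfh and 0.66 (SE 0.18, edgeR adjusted p = 0.00911) in Tn, corrected 0.41 (adjusted p = 0.0383) and 0.49 (adjusted p = 0.0133). The Tfh call was lost without TC Tfh 2, at 0.56 (adjusted p = 0.0535). Ubash3b was lower in TC Tn, at -0.39 (SE 0.093, edgeR adjusted p = 0.0021) and -0.46 (adjusted p = 0.00046) corrected, with -0.12 (SE 0.085, edgeR adjusted p = 0.248) in Tfh and -0.22 (adjusted p = 0.0422) corrected. Ubash3a was lower in Tn at -0.16 (SE 0.056, edgeR adjusted p = 0.0259), corrected -0.31 (adjusted p = 0.00158), and lost without any of 4 single libraries (adjusted p 0.0529 to 0.0946). Cblb was higher in TC Tn at 0.13 (SE 0.054, edgeR adjusted p = 0.0466), but without any of 11 single libraries it did not pass (adjusted p 0.0573 to 0.121). Corrected, Cblb was -0.16 (adjusted p = 0.0118) in Tfh and -0.006 (adjusted p = 0.937) in Tn.

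Both diacylglycerol kinases were higher in TC. Dgka rose in TC by 0.40 (SE 0.077, edgeR adjusted p = 0.000394) in Tfh and 0.34 (SE 0.076, edgeR adjusted p = 0.00112) in Tn, with corrected values of 0.40 (adjusted p = 0.000321) and 0.34 (adjusted p = 0.000964). All genes in its sixth of lengths had medians of -0.017 in Tfh and 0.002 in Tn, so a correction for length had little to remove. All TC Tfh libraries, 1151 to 1247 CPM, were above all B6 Tfh libraries, 769.5 to 984 CPM. Dgkz rose in TC Tfh by 0.48 (SE 0.058, edgeR adjusted p = 5.58e-06), at 1352 to 1479 CPM against 966 to 1120 CPM in B6 Tfh, and by 0.28 (adjusted p = 0.00056) corrected. In Tn it passed at 0.17 (SE 0.058, edgeR adjusted p = 0.0205), a call lost without TC Tn 2 or TC Tn 4 (adjusted p 0.0574 to 0.07), and the direction turned after correction, at -0.10 (adjusted p = 0.142).

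**Figure D5:**
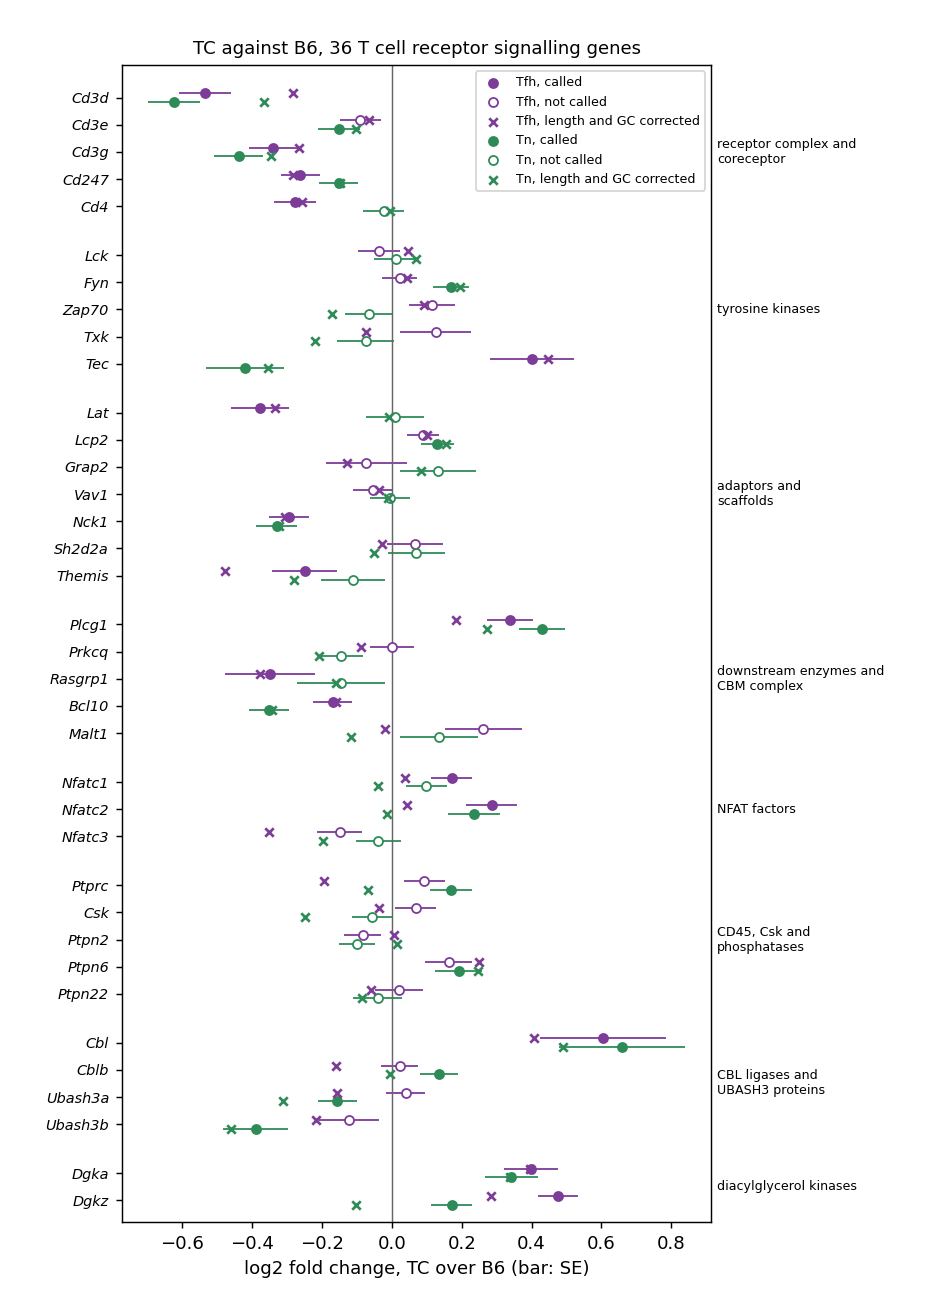
Log2 fold change of TC over B6 for each member (rows, grouped by role) in Tfh and Tn, with bars of 1 SE, filled points for genes called by edgeR, open points for the rest and crosses for values corrected for length and GC content. Cd3d lies farthest left and Cbl farthest right in both cell types, Tec lies on opposite sides of 0, and for Ptprc the crosses lie on the other side of 0 from the points.

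Of the 52 other pathway genes, 19 were higher and 15 lower in TC Tfh, and 15 higher and 14 lower in TC Tn, 65.4 and 55.8% of the list against the 49.7 and 52% of all genes. Corrected for length, 12 were higher and 17 lower in TC Tfh, and 11 higher and 16 lower in TC Tn. The smallest adjusted p in Tfh belonged to Itpkb, a kinase of inositol trisphosphate, at 0.45 (SE 0.054, edgeR adjusted p = 5.13e-06), corrected 0.18 (adjusted p = 0.00833), and Itpr3, an inositol trisphosphate receptor, at 0.34 (SE 0.055, edgeR adjusted p = 0.000102), corrected 0.082 (adjusted p = 0.132). Lower were Cd6, a receptor of the T cell surface, at -0.54 (SE 0.069, edgeR adjusted p = 8.81e-06), corrected -0.66 (adjusted p = 2.72e-06), and the adaptor Grap, at -0.51 (SE 0.070, edgeR adjusted p = 1.93e-05), corrected -0.34 (adjusted p = 0.000781). In Tn the genes so ranked were Lax1, at 0.57 (SE 0.067, edgeR adjusted p = 2.18e-06), corrected 0.77 (adjusted p = 5.48e-08), and Itpr3, at 0.43 (SE 0.055, edgeR adjusted p = 6.2e-06), corrected 0.14 (adjusted p = 0.0118), and the lower ones Skap1, an adaptor of integrin activation, at -0.58 (SE 0.065, edgeR adjusted p = 1.28e-06), corrected -0.65 (adjusted p = 1.28e-06), and Ptpn7, at -0.32 (SE 0.050, edgeR adjusted p = 4.36e-05), corrected -0.36 (adjusted p = 1.29e-05).

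Whether the Tfh to Tn ratio itself differed between TC and B6 was tested as an interaction. Of the 36 members 1 passed, Tec, which was higher, where 2.32% of all genes tested passed, 0.953% higher and 1.37% lower, and 7 members had an unadjusted p below 0.05, as had 14.6% of all genes. Tec had a log2 fold change in Tfh of -0.57 in TC and -1.39 in B6, a difference of 0.82 (SE 0.17, edgeR adjusted p = 0.0123). It passed in each of 24 alternative analyses, between 0.75 and 0.95 (adjusted p 0.000594 to 0.041). With mouse as a block 3 further members passed, where 5.48% of all genes passed. Lat fell further in TC, with a difference of -0.39 (SE 0.12, edgeR adjusted p = 0.0992) without and -0.39 (adjusted p = 0.0173) with the block. Cd4 rose less in TC, at -0.26 (SE 0.084, edgeR adjusted p = 0.145) and -0.25 (adjusted p = 0.0435). Dgkz rose more in TC, at 0.31 (SE 0.083, edgeR adjusted p = 0.0618) and 0.31 (adjusted p = 0.0247), and it also passed without B6 Tfh 4, at 0.38 (adjusted p = 0.0158). Zap70 passed with the block and the length correction together, at 0.26 (adjusted p = 0.0481), against 0.18 (SE 0.095, edgeR adjusted p = 0.412) without either. Over all genes the block changed the calls to 302 higher and 434 lower, against 128 and 184 without it.

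The congenic intervals of TC lie on chromosomes 1, 4 and 7. Cd247, Ptprc and Zap70 lie on chromosome 1, Lck on chromosome 4 and Lat on chromosome 7, and whether they fall inside the intervals was not tested. The remaining members lie elsewhere, among them Cd3d, Cbl, Tec, Dgka and Dgkz. Apart from Cd247, exons of other genes overlapped at most 7% of a member's exons.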

How the data were processed

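The deposited table holds read counts, 1 line per gene symbol and 1 column per library. The submitters' processing notes name STAR 2.7, the mouse build mm10 and DESeq2. RNA was column-purified and libraries made with a TruSeq Stranded kit, per the labels' protocols. How reads were counted, with which strand setting and gene annotation, is not given in the sources used here, and sequencing batch is not in the labels, so counts of overlapping and antisense genes are uncertain, and any batch that follows strain cannot be told apart from it. Tn samples carry a source label that says Tfh, so their titles and cell type labels were used instead.

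Genes passing filterByExpr at a count minimum of 10 were normalized by TMM and fitted together with edgeR 4.0.16 (robust quasi-likelihood, 1 mean per group, 14 libraries) in R 4.3.3. Genes with a Benjamini-Hochberg adjusted p below 0.05 over all 13427 tested were called. There were 5 comparisons: Tfh with Tn within TC and within B6, TC with B6 within Tfh and within Tn, and the interaction (Tfh to Tn ratio of TC over that of B6). SE is the log2 fold change over the root of the F statistic. A floor of 3 counts is 0.150 to 0.191 CPM. Counts of libraries within a group differed by more than sampling noise in every pair (4.99 to 18.8 for chi-square over its degrees of freedom). The fit was tested on simulated data in which 200 genes, drawn from all 13427 tested whatever their level, were changed per comparison. It recovered 60 to 68% of 1.5-fold and 72 to 82% of 2-fold changes in the comparisons of 2 groups. In the interaction it recovered 49 and 69%. False calls among unchanged genes numbered 5 to 10 per comparison. In the data far more genes were called, 49.7 to 70.3% in the comparisons of 2 groups, which makes the threshold less strict. These rates therefore need not hold for the members, though a gene that did not pass may still differ.

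Tfh and Tn of a mouse share its number. Deviations of the paired libraries from their group means correlated at 0.299, 0.114, 0.039 and 0.203 in B6 mice 1 to 4 and 0.209, 0.207 and 0.257 in TC mice 1, 2 and 4, and mouse as a block was an alternative. Others were DESeq2 1.42.0, limma 3.58.1 voom with a random mouse effect, size factors by RLE, TMM leaving out receptor, immunoglobulin and mitochondrial genes, no filter, a count minimum of 50, the compared groups alone, a non-robust fit and each library left out. A spline correction for exon length and GC content per library was added after seeing the data.

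The members and gene lists were chosen with earlier results of these data known. Values of every library were given for the 2 members per role with the widest change between Tfh and Tn called in both strains, for members called between strains at a log2 change of at least 0.5, and for members called in the interaction. Of the other pathway genes, those with the smallest adjusted p were named, 3 per direction in B6 Tfh over Tn and 2 per direction in each strain comparison. Exon lengths, overlaps and positions came from GENCODE M21, matched by symbol.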

Additional observations from a re-analysis of the deposited data

Results flagged for a closer look

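In 7 of 72 groups of 4 B6 libraries, 1 for each member and cell type, a single library stood apart from the other 3 by Dixon's criterion. Chance alone marks about 1 group in 20. In B6 Tfh, Ptpn22 was at 495.8 CPM in mouse 1, against 544 to 551 CPM in the other 3, and Dgkz was at 1120 CPM in mouse 4, against 966 to 983 CPM.

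In B6 Tn, mouse 1 was the library set apart for 3 genes. Tec was at 21.9 CPM there, against 30.2 to 31.3 CPM in the other mice, Lat at 678 CPM, against 759.7 to 777 CPM, and Nfatc3 at 502 CPM, against 448 to 452 CPM. Grap2 was at 418 CPM in mouse 2, against 441 to 444 CPM, and Fyn at 443 CPM in mouse 4, against 402 to 408 CPM.

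Tec was also marked because its Tfh to Tn difference was not the same in the strains, by 0.82 on the log2 scale (edgeR adjusted p = 0.0123). Without B6 Tn 1, the library set apart for Tec, the difference was 0.93 (adjusted p = 0.000594).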

How the results depend on the processing

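Over all settings, 26 to 30 members passed between Tfh and Tn in TC, 24 to 29 in B6, 12 to 20 between strains in Tfh, 9 to 22 in Tn and 1 to 5 in the interaction. The main fit called 66.1, 70.3, 49.7, 52 and 2.32% of all genes in these comparisons. With a library left out, calls over all genes between strains ran from 3014 to 3426 higher and 2843 to 3454 lower in Tfh. In Tn they ran from 3026 to 3635 and from 2973 to 3594. Whether the members changed more than all genes did was not tested. No setting moved the median of all genes by over 0.1 on the log2 scale. With mouse as a block no calls changed between Tfh and Tn but those of Cbl, Cd3d and Ubash3a given above. Between strains a replicate number joins no animals. A fit with that number as a replicate block, which drops B6 mouse 3, called 12 members in Tfh and 16 in Tn, against 16 and 19. The share of all genes called by that fit is not given here.

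Members called higher in TC Tn, 10 in all, came to 6 under the length and GC correction and to 3 to 10 with a library left out (6 without TC Tn 1, 3 without TC Tn 2 and 6 without TC Tn 4). All genes called higher in TC Tn numbered 3026 to 3635 with a library left out. Other pathway genes higher in TC Tfh came to 12 under that correction. The correction changed the sign of Ptprc (-0.20, adjusted p = 0.0107) and Cblb (-0.16, adjusted p = 0.0118) in Tfh, neither of which was called before it. In Tn it changed the sign of Nfatc2 (-0.014), Ptprc (-0.069), Cblb (-0.006) and Dgkz (-0.10). These were called before it, and none passed after it (adjusted p 0.142 to 0.937). Signs also changed for members called neither before nor after it, such as Malt1 in Tfh. The cause was not tested.

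In the interaction, members called higher numbered 2 with DESeq2, voom, the replicate block, or the correction without the block, 3 with the correction and block together, and 1 to 2 with a library left out. Members called lower, 0 in the edgeR fit, numbered 2 with DESeq2, voom, the block, or correction and block together, and 1 with no filter. Over all genes, calls higher numbered 266 with DESeq2, 240 with voom, 302 with the block, 344 with correction and block, and 74 to 158 with a library left out. Calls lower numbered 328 with voom, 434 with the block, 515 with correction and block, and 85 to 190 with a library left out. Low depth limits Tec most, with 202 reads in its lowest library.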
